A study of Mus musculus with 11 samples.

Results

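The abundant long noncoding RNAs of beta cells were the 125 genes of 5 GENCODE noncoding classes (lincRNA, antisense, sense intronic, sense overlapping and bidirectional promoter lncRNA) whose mean level reached 10 CPM (the expected count of a gene scaled to the library total) in the control or in the PD-L1high libraries. They came from 9119 genes of those classes, 3868 of them with at least 1 expected count in any library, among 55487 genes in all. By class, 63 were lincRNAs, 46 antisense RNAs, 8 bidirectional promoter lncRNAs, 7 sense intronic RNAs and 1 sense overlapping RNA. Since members were selected on their measured level, that level was a description and not a result. The limit was reached in both groups by 89 members, in control alone by 31 and in PD-L1high alone by 5 (AW112010, AC119228.1, Gm20939, 2810402E24Rik and 4933404O12Rik), and a difference between control and PD-L1high in the last 36 was partly what selected them. Just inside the limit lay E430024I08Rik, AC102496.1 and Gm44777, with control means of 10.003, 10.004 and 10.08 CPM, and just outside it Gm26759, Gm16973 and D130017N08Rik, with their larger mean at 9.91, 9.81 and 9.80 CPM.

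All 11 libraries held beta cells sorted from cultured islets of male C57BL/6 mice aged 12 weeks, as the EpCam+ CD24low CD71+ fraction without blood and endothelial lineage markers. The 4 control libraries came from islets cultured without cytokine. The 4 PD-L1high and 3 PD-L1low libraries came from islets given 50 pg/mL of IFNγ for 20 h. Their beta cells were then split by the surface level of PD-L1, so that Cd274, the gene of PD-L1, was the basis of the split. The islets of both treated groups were given the same dose. The paper proposes a gradual diffusion of IFNγ into the islet, so the dose that reached the cells of each group may have differed. No PD-L1low library of replicate 1 was analysed here. Each replicate is an independent biological sample by the study's methods, and library totals ran from 10422038 to 15810817 counts.

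The label was checked on markers. The summed level of 8 beta cell markers was between 59920 and 91724 CPM in every library, and Ins2 alone was between 20949 and 42242 CPM. Erythroid markers were at 0 in every library, and endothelial, stellate and acinar marker sums were at most 1.03 CPM. Duct markers summed to between 97.2 and 495 CPM, the highest in PD-L1high replicate 1. Most of this was Spp1, with means of 163, 215 and 221 CPM in control, PD-L1low and PD-L1high. The group means of the duct markers Krt19 and Muc1 were at most 0.945 and 2.45 CPM. Markers of other islet cells were present at a low level and followed the split: 6 alpha cell markers summed to between 318 and 1359 CPM in control, 342 and 361 in PD-L1low and 592 and 1526 in PD-L1high, and the PP cell markers Ppy and Pyy to between 147 and 374, 27.2 and 34.2, and 245 and 578 CPM. Delta cell markers summed to between 7.02 and 32.5, 3.396 and 9.30, and 10.9 and 40.6 CPM. All Cd274 values of PD-L1high (159 to 287 CPM) lay above those of PD-L1low (30.9 to 48.0) and control (15.8 to 24.6).

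Long noncoding RNAs are transcripts annotated without a protein-coding sequence, and many are retained in the nucleus. Some are structural, such as Neat1, around which paraspeckles assemble, and Malat1, which is held in nuclear speckles. Others, such as Meg3, Airn and Kcnq1ot1, are read from one parental allele at imprinted loci, and antisense RNAs are read from the strand opposite a coding gene. The libraries were made from total RNA with random primers after removal of ribosomal RNA, so transcripts without a poly(A) tail and unspliced nuclear RNA were counted as well.

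Malat1 and Neat1 are shown first because they held the most and the 3rd most counts of the members and share an unusual end. Their long forms carry no poly(A) tail. Each long form ends at a genome-encoded run of A that folds with T-rich stretches (U-rich in the RNA) into a triple helix. Capitals mark the A-rich tract AAAAAGCAAAA and the T-rich motif TTTTNCTTTT in the GENCODE transcripts, Malat1 at chr19:5795982-5796091 and Neat1 at chr19:5824708-5824817, both GRCm38 and on the minus strand.
Malat1: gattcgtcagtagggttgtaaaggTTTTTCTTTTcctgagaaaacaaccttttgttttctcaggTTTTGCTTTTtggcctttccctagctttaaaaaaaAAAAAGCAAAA
Neat1: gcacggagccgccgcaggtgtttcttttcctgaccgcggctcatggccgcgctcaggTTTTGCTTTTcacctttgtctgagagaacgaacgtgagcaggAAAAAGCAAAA
The exact A-rich tract was found on the transcribed strand in 4 of 125 members (Malat1, Neat1, Gm33280 and Gm45159, 3.2%) and in 36 of 9360 genes of these classes in GENCODE (0.385%). Members were chosen for their level and many were long, so the shares are not matched for length.

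Malat1 lay far above the other members in counts. Its level was 45437, 9000, 23695 and 12349 CPM in the control libraries of replicates 1 to 4, 25673, 19146 and 19621 CPM in PD-L1low of replicates 2 to 4, and 22788, 13189, 13299 and 16214 CPM in PD-L1high of replicates 1 to 4. The control libraries thus held both the highest and the lowest value, and they enclosed every treated library. Malat1 made up 0.900% to 4.54% of all counts, and all 125 members together 1.37% to 5.83%. Without Malat1, the other members made up 0.469% to 1.29%.

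Levels between genes were compared in TPM, a scaled transcript abundance that allows for length. Rmrp, the RNA subunit of the ribonuclease RNase MRP, had the highest mean over the 11 libraries at 8686 TPM, followed by Malat1 at 4232 TPM. Rmrp is only 281 bases long, and RSEM divides by an effective length that shrinks for so short a transcript, so its TPM was the least certain. Meg3 (361 TPM), Gm10076 (356), Neat1 (133), 2900097C17Rik (105) and Tug1 (60.9) came next, then Gm27033 (57.0), A230057D06Rik (56.9), Ndufb1-ps (44.9), Lncpint (39.3), Gm17767 (34.6), Gm30648 (32.9), Mirg (32.0) and Tmem250-ps (31.4). The mean of Malat1 was above the highest single value of Meg3, 648 TPM, whereas neighbours below Tug1 overlapped in their ranges.

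Rmrp is printed whole because its counts depended on how an overlapping entry was treated (chr4:43492783-43493063, GRCm38, minus strand, a single exon). Capitals mark the bases outside a second Rmrp entry of 271 bases, which GENCODE calls a ribozyme.
Rmrp: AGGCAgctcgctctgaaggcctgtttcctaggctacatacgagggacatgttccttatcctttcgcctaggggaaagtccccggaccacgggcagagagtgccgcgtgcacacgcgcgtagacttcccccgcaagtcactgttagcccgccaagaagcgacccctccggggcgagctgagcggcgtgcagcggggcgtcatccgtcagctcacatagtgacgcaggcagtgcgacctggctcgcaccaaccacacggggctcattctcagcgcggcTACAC
The shorter entry was listed at 0 in all 11 libraries, so every Rmrp count was assigned to the longer one. Rmrp was at 1416 CPM in control replicate 1 and at 365, 496 and 416 CPM in the other control libraries, 796, 588 and 592 CPM in PD-L1low, and 489, 452, 627 and 467 CPM in PD-L1high.

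For 12 members, over 40% of a transcript was shared with another gene at 97% identity or more, and their counts are uncertain to that extent. Gm10076 matched 99.7% of its length to Rpl41, a coding gene of the large ribosomal subunit, and held between 18.9% and 37.1% of the Rpl41 count. Gm27177 matched the coding gene Gm16867 over its whole transcript and AC158975.2 matched Gm42427 over 98.9%. For 2900097C17Rik, 51.6% was shared with Gm7292.

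The members ranged from steady to variable RNAs, with no set boundary between them, and this was seen among untreated libraries alone. The highest control library exceeded the lowest by a median of 2.64-fold over the members, against 1.68-fold over all 16252 genes tested and 1.43-fold over 8515 coding genes with a control mean of at least 10 CPM. This range was above 2-fold in 83 members (66.4%), against 9.31% of those coding genes, and under 1.5-fold in 19 members. A high value in a single control library both helps a gene reach the limit and widens its range. The median control range was 3.61-fold in members that entered through control alone, 2.55-fold through both groups and 1.66-fold through PD-L1high alone. The median range was 1.40-fold within PD-L1low and 1.73-fold within PD-L1high. A range widens with the number of libraries, and PD-L1low had 3, with none of replicate 1, against 4 in the other groups. The groups are thus not compared by it. Antisense members had a median control range of 3.44-fold, lincRNAs 2.55-fold, sense intronic RNAs 5.02-fold and bidirectional promoter lncRNAs, which share a start region with a coding gene, 1.77-fold.

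Most members shared their highest control library. Control replicate 1 was the highest control library in 94 of 125 members (75.2%), against 35.7% of all genes tested and 23.1% of the coding genes above. A high value in a single control library also helped a gene become a member, so this share is a description. In 60 members replicate 1 was highest and replicate 2 lowest. Neat1 was at 2525, 487, 1186 and 647 CPM in control, 1189, 937 and 925 CPM in PD-L1low, and 1344, 659, 634 and 646 CPM in PD-L1high. That is 3.98% to 5.90% of the Malat1 count in each library, although Malat1 itself ranged over 5.05-fold.

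Meg3, the imprinted RNA of the Dlk1-Dio3 locus, was at 2367, 498, 1599 and 672 CPM in control, 1319, 993 and 814 CPM in PD-L1low, and 1017, 640.3, 646 and 642 CPM in PD-L1high, which was 3.96% to 6.75% of Malat1. Mirg, a microRNA host further along the same locus, followed with 106, 24.007, 74.1 and 39.2 CPM in control, between 45.2 and 64.1 in PD-L1low and between 30.4 and 49.2 in PD-L1high. B830012L14Rik, between Meg3 and Mirg, had the same order of control libraries, from 32.5 to 186 CPM. Rian, another imprinted RNA of the locus, is classed as a processed transcript and was no member. It ranged from 995 to 2251 CPM in control.

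Kcnq1ot1, the antisense RNA of the imprinted Kcnq1 domain, was at 1372, 262, 646 and 349.7 CPM in control, 624, 461 and 242 CPM in PD-L1low, and 659.6, 420.1, 381 and 447 CPM in PD-L1high. Airn, read across Igf2r, was at 28.8, 7.78, 23.02 and 10.03 CPM in control. Of the imprinted members, Peg13 was the exception, at 82.9, 123, 109.9 and 122 CPM in control, with replicate 1 lowest. Its 11 values all lay between 82.9 and 139 CPM.

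The steady members included widely expressed RNAs. Tug1 was at 228, 279, 269 and 317 CPM in control, 276, 273 and 349 CPM in PD-L1low, and 291, 316, 267 and 278 CPM in PD-L1high, and 2900097C17Rik stayed between 385 and 639.8 CPM. In both, control replicate 1 was the lowest library, the opposite of Malat1. The smallest spreads over the control libraries in relation to the mean were those of Gm10076 (58.8 ± 2.77 CPM, SD, n = 4), Gm30648 (44.2 ± 2.09) and Gm47163 (22.5 ± 1.40). The largest were those of AC119228.1 (2.76 ± 3.00), Gm10848 (13.8 ± 14.9) and Gm43462 (11.4 ± 11.5). Ftx and Jpx, which flank Xist in the X inactivation centre, ranged over 3.02-fold and 4.80-fold, and Lncpint, a p53-responsive RNA, over 4.86-fold, all with control replicate 1 highest.

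**Figure D1:**
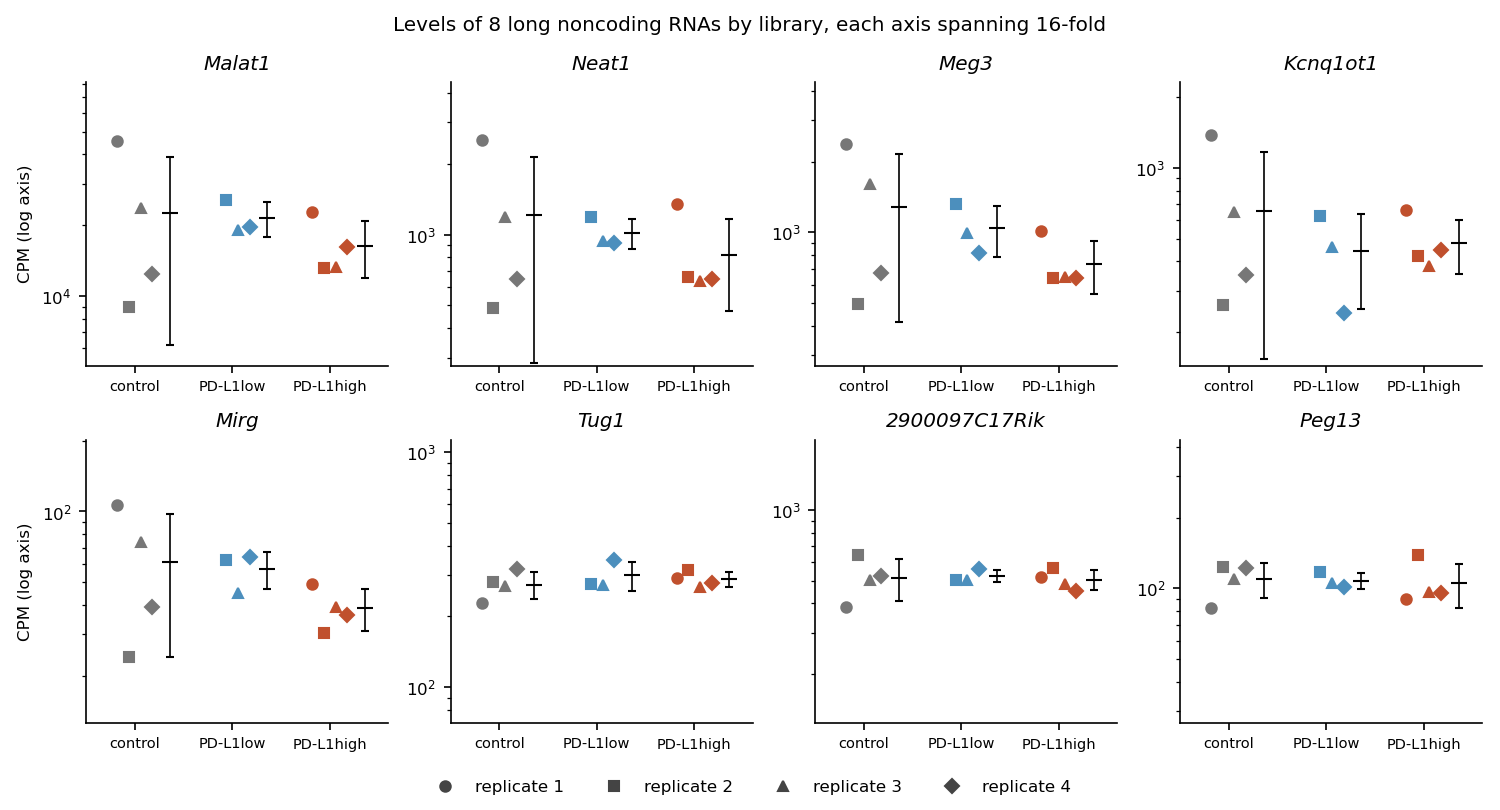
CPM (log axes, each spanning 16-fold) of 8 members in the control, PD-L1low and PD-L1high libraries, with one symbol per replicate number and the mean ± SD of each group as a bar at its right. Control replicate 1 is highest and control replicate 2 lowest of the controls for Malat1, Neat1, Meg3, Kcnq1ot1 and Mirg, whereas Tug1, 2900097C17Rik and Peg13 stay level, with control replicate 1 the lowest control.

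Control replicate 1 also stood apart in other measures. In control replicate 1, mitochondrial genes took 13.3% of counts, against 7.12% to 9.00% in the other controls, and genes of the GENCODE class TEC, whose transcripts still await experimental proof, took 1.42%, against 0.378% to 0.657%. The beta cell marker sum was lowest there, at 59920 CPM, and the alpha cell marker sum was 318 CPM, against 663 to 1359 CPM. In control replicates 1, 3, 4 and 2, the share of counts from members was 5.83%, 3.14%, 1.77% and 1.37%. The mitochondrial share fell in the same order, at 13.3%, 9.00%, 7.87% and 7.12%, and both marker sums rose in it. In PD-L1low replicates 2, 3 and 4, members took 3.34%, 2.55% and 2.58%, and mitochondrial genes 8.18%, 8.34% and 9.54%. In PD-L1high the mitochondrial share had no common order with the share of counts from members. Replicate 1, with the highest share from members (3.00%), had 7.38%. Replicate 2, with 1.86%, had 5.54%, and replicates 3 and 4, with 1.86% and 2.16%, had 10.1% and 11.9%. The part of each in the levels of the members was not tested. In sorted pools, more RNA per cell and more cells holding an RNA cannot be told apart.

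Antisense members ranged more widely over the control libraries than the coding genes they overlap. Of the members, 55 overlapped a coding gene on the opposite strand, 45 of them within exons, and 31 started within 1000 bases of a coding gene read the other way. In 50 overlapping pairs whose coding gene reached 10 CPM in control, the median control range was 2.58-fold for the noncoding RNA and 1.47-fold for the coding gene, and the noncoding RNA had the wider range in 41. In 25 pairs that shared a start region, it was 1.82-fold against 1.46-fold, wider in 17. The kit marked strand, but whether counting used it is not given in the sources used here. Without it, reads from overlapping exons cannot be assigned to one strand.

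Several antisense members lay across genes of beta cell function. Pcsk2os1 and Pcsk2os2 run opposite to Pcsk2, the proinsulin convertase (chr2:143535476-143547837 and chr2:143747583-143795965, minus strand). Pcsk2os1 was at 53.6, 18.5, 28.5 and 17.2 CPM in control, between 22.9 and 35.3 CPM in PD-L1low, and 26.7, 15.7, 19.6 and 14.4 CPM in PD-L1high, whereas Pcsk2 was lowest of the controls in replicate 1 (2093 CPM, against 2518 to 3110). Pcsk2os2 was at 84.2, 13.6, 47.6 and 15.8 CPM in control. The antisense RNA of Glp1r, the GLP-1 receptor, named AC165951.1, had 76.8, 12.6, 40.7 and 18.6 CPM in control with no exon opposite an exon of Glp1r. Gm45486, inside Abcc8, the sulphonylurea receptor of the ATP-sensitive potassium channel, had 49.8, 12.2, 31.6 and 12.5 CPM.

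Other members lay near genes known in islets, among them the transcription factors Pdx1 and Pax6. Gm27033, a single exon 10761 bases from the start of Pdx1 was at 19.8, 20.0, 26.1 and 12.5 CPM in control and held between 8.25% and 16.3% of the Pdx1 count. M5C1000I18Rik, which shares a start region with C2cd4b, was at 51.8, 33.3, 36.6 and 38.2 CPM in control. Paupar, whose nearest coding start is that of Pax6, was lower, at 20.1, 7.19, 11.7 and 8.39 CPM.

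**Figure D2:**
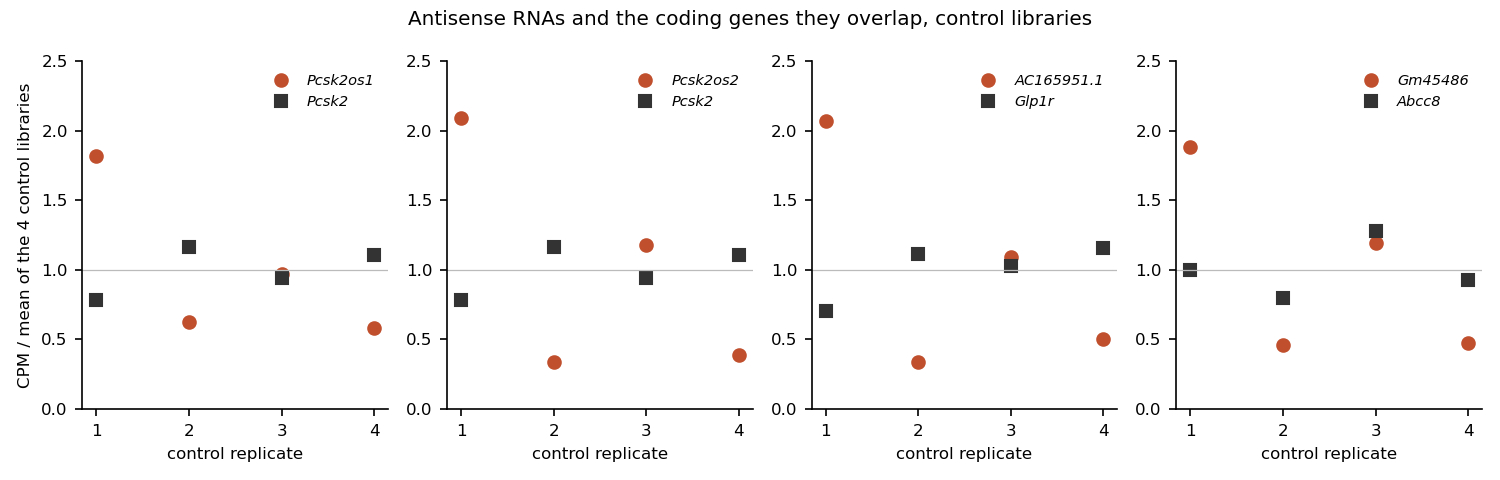
CPM in the 4 control libraries divided by their mean, for 4 antisense RNAs (circles) and the coding genes they overlap (squares). The antisense RNAs reach their highest value in replicate 1 in all 4 pairs, whereas Pcsk2 and Glp1r are lowest there.

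PD-L1high was compared with control to ask how the members stood in beta cells that had answered IFNγ. AW112010 and AC119228.1 were higher by 8.91-fold and 7.36-fold, and no member was called lower. Both had entered the list only through their PD-L1high mean, so that these values are a description. Among all genes tested 0.991% were called in this comparison. Over the 89 members that reached the limit in both groups, 0 were called by edgeR's quasi-likelihood test, 5 had an unadjusted p under 0.05, and DESeq2 and limma-voom each called only Gm34759. Over all 125 members, 11 had an unadjusted p under 0.05 (8.8%, against 7.65% of all genes).

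AW112010 (chr19:11047612-11055808, minus strand, 4 exon blocks) is known as an interferon-inducible transcript of immune cells. It was at 2.75, 0.954, 0.506 and 0.821 CPM in control, 0.846, 1.73 and 2.38 CPM in PD-L1low, and 21.4, 8.99, 8.11 and 4.22 CPM in PD-L1high. All 4 PD-L1high libraries lay above the other 7. Its log2 fold change against control was 3.16 ± 0.42 (SE, 95% interval 2.26 to 4.05, adjusted p = 0.000528, edgeR). AW112010 entered the list only through its PD-L1high mean, so these values describe it and no support is drawn from them. Macrophage and lymphoid marker sums were at most 4.68 and 1.22 CPM in any library, and macrophage markers were between 2.33 and 4.68 CPM in PD-L1high against 2.02 to 4.01 in control.

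The promoter of AW112010 is printed because the gene had the largest rise of the members. It is the RefSeq sequence at chr19:11050517-11050816 (GRCm38.p6, minus strand), with capitals from the transcription start on. This RefSeq start lies inside the GENCODE span of the gene, downstream of the GENCODE start.
AW112010: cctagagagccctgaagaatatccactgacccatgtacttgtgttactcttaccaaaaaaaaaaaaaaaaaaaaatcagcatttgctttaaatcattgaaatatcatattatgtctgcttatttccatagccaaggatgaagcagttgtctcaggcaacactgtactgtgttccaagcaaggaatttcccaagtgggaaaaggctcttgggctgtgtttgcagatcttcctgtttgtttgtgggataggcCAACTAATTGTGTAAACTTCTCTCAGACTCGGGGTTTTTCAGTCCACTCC
The interferon-γ activated site motif TTCNNNGAA, which reads the same on both strands, was not found in this window. The region at the GENCODE start of AW112010 was not searched. The motif occurred in 8.3% of 32851 promoters of the same length. Among 64 promoters of the 56 members in that table, 3 held it (4.69%), those of 1810058I24Rik, Gm5113 and Rab10os, and none of these genes was called in any comparison.

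AC119228.1 (chr19:29373417-29384471, minus strand) lies inside Cd274 on the opposite strand, and 3 of its stretches, of 115, 285 and 111 bases, are complementary to coding exons of Cd274. One is printed to show the overlap, in the sense of AC119228.1 at chr19:29382452-29382610 (GRCm38, minus strand), with capitals for the bases opposite the Cd274 coding exon.
AC119228.1: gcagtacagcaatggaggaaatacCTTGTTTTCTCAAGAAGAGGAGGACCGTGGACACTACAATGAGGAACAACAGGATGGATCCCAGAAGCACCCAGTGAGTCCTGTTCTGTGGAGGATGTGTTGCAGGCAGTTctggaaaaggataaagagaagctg
AC119228.1 was at 7.17, 0.661, 2.11 and 1.10 CPM in control, 4.85, 3.04 and 1.77 CPM in PD-L1low, and 24.1, 14.02, 9.72 and 14.8 CPM in PD-L1high. Every PD-L1high library was above every other library. The log2 fold change against control was 2.88 ± 0.43 (SE, adjusted p = 0.00236, edgeR, and 0.158 without the replicate number as a term), and that of Cd274, on which the cells were split, was 3.42. AC119228.1 also entered the list only through its PD-L1high mean, so no support is drawn from these values. AC119228.1 held between 3.23% and 29.1% of the Cd274 count, with the highest share in control replicate 1. Since strand use in counting is not given, reads of AC119228.1 and Cd274 from these exons cannot be told apart.

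**Figure D3:**
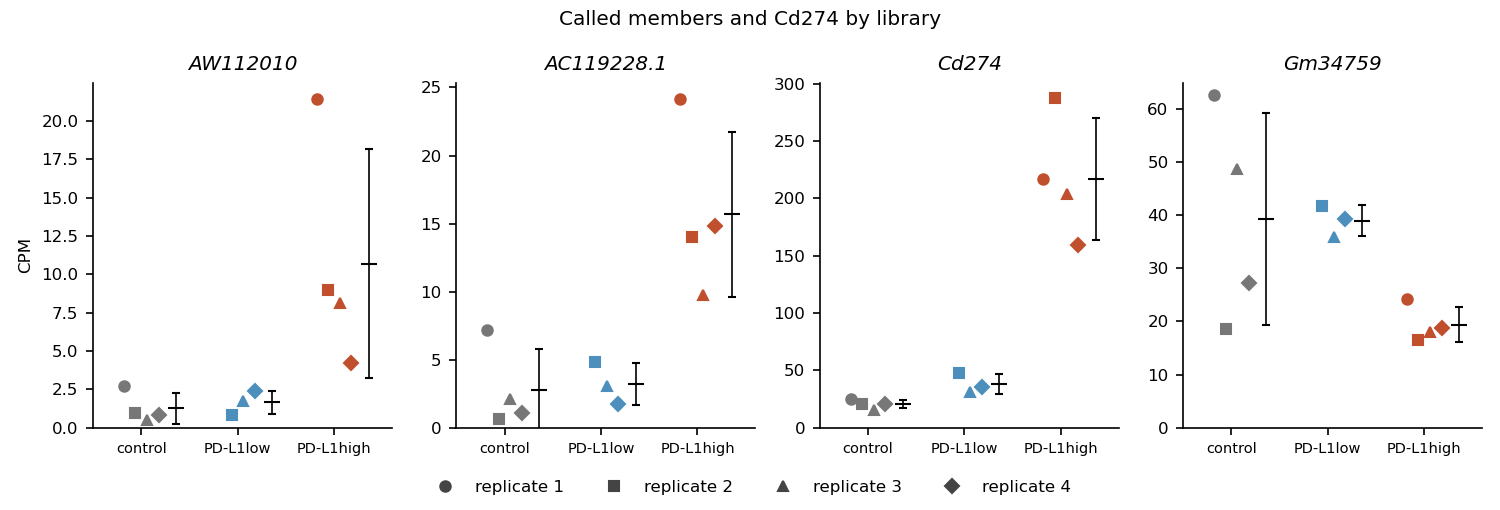
CPM of the called members AW112010, AC119228.1 and Gm34759, and of Cd274, in each library, with one symbol per replicate number and mean ± SD at the right of each group (bars cut at 0). All PD-L1high values of AW112010, AC119228.1 and Cd274 lie above all others, and all PD-L1high values of Gm34759 (16.5 to 24.1 CPM) lie below all of PD-L1low (35.8 to 41.6 CPM). AW112010 and AC119228.1 became members only through their PD-L1high mean, and the cells were split on PD-L1, the product of Cd274.

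No other member passed the test against control. Gm34759 was next in order of p (log2 fold change -0.90 ± 0.22, adjusted p = 0.10, edgeR), then AI480526 (-0.81 ± 0.28, adjusted p = 0.405), which starts 527 bases from Setd1b, a histone methyltransferase gene read the other way. Malat1 was at -0.23 ± 0.30 (95% interval -0.92 to 0.46), Neat1 at -0.35 ± 0.25, Meg3 at -0.58 ± 0.35 and Mirg at -0.48 ± 0.32 on the log2 scale, with adjusted p from 0.766 to 0.903 in edgeR. All 4 of these 95% intervals included 0. Tug1 was more closely bounded, at 0.11 ± 0.10 (95% interval -0.11 to 0.33). The fitted value was negative in 99 of 125 members, with a median of -0.21, against -0.02 over all genes tested. The 31 members that entered through control alone were selected in part on this sign. Over the 89 members that reached the limit in both groups, 68 were negative, with a median of -0.16. By replicate number, the PD-L1high to control ratio was below 1 in 104 members for replicate 1, in 39 for replicate 2, in 96 for replicate 3 and in 64 for replicate 4.

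With control replicate 2, the library lowest in most variable members, left out, 9 of 125 members were called in place of 2, against 1.67% of all genes tested in that fit. The 7 added ones were all lower in PD-L1high (4932422M17Rik, Gm21781, Gm34759, Gm38102, Gm4673, Gm49542 and Pcsk2os2). Control replicate 2 was the lowest control in 64 of 125 members. Leaving it out by itself raises their control mean and moves their fold changes down, so the added calls carry no support. The fitted log2 change of Malat1 turned positive without control replicate 1 (0.059), control replicate 3 (0.027) or PD-L1high replicate 1 (0.062).

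PD-L1low against control asked whether the members moved in cells of treated islets that stayed low in surface PD-L1. How much IFNγ reached these cells was not measured. No member was called (0 of 125, against 0.08% of all genes tested). By edgeR 6 members had an unadjusted p under 0.05, against 2.1% of all genes, and DESeq2 and limma-voom called 0. The 4 with the smallest p were 6720427I07Rik (log2 fold change 0.84 ± 0.30), Gm44777 (-0.87 ± 0.33), which shares a start region with the ribosomal protein gene Rps13, AC117816.1 (-0.52 ± 0.20) and 1110002L01Rik (-0.61 ± 0.27), which runs opposite to Asxl2. All had an adjusted p of 1.00. AC117816.1 was at 10.99, 13.4, 13.2 and 16.2 CPM in control and 10.1, 9.61 and 10.5 CPM in PD-L1low, with no overlap. Malat1 was at 0.46 ± 0.35 and Neat1 at 0.37 ± 0.28. The fitted value was positive in 88 of 125 members, with a median of 0.11 against 0.00 over all genes tested. Control libraries enter both this comparison and the first.

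PD-L1high was then set against PD-L1low, sorted from islets given the same dose. One member was called, Gm34759, which was lower in PD-L1high, against 0.732% of all genes tested. Gm34759 is a lincRNA of 6 exon blocks (chr15:12068248-12085197, minus strand) whose nearest coding start, that of Zfr, lies 32634 bases away. It was at 41.6, 35.8 and 39.2 CPM in PD-L1low and at 24.1, 16.5, 18.02 and 18.8 CPM in PD-L1high, with no overlap. The control libraries, at 62.6, 18.6, 48.6 and 27.3 CPM, lay above and below the PD-L1low values. Control replicate 2 lay among the PD-L1high values. The log2 fold change was -1.20 ± 0.24 (SE, 95% interval -1.71 to -0.68, adjusted p = 0.0357, edgeR). Zfr itself was level, with 333 CPM in PD-L1high and 332 CPM in PD-L1low.

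The call of Gm34759 rested on the model. Its adjusted p was 0.54 without the replicate number as a term and 0.0664 with a stricter count minimum, and it passed 0.05 when control replicate 4 (0.0589), PD-L1low replicate 2 (0.282) or 4 (0.273), or PD-L1high replicate 2 (0.144), 3 (0.218) or 4 (0.0581) was left out. The fold change stayed between -1.43 and -0.95 throughout. Alpha, delta and PP cell marker sums were higher in every PD-L1high library than in PD-L1low, as given above, and their part in the difference was not tested.

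More members had a small unadjusted p here than in the other comparisons. By edgeR 25 of 125 had a p under 0.05 (20.0%), 21 of them lower in PD-L1high, against 8.52% of all genes tested, and 17 of the 89 members that reached the limit in both groups (19.1%). The median fitted value was -0.28, against -0.00 over all genes. Members such as Neat1 and Meg3 followed Malat1 over the libraries, so the members in these counts, and in the counts of signs above, are not independent. All genes tested were not matched to the members for level. All PD-L1high libraries were below all PD-L1low libraries in 7 members, against 3.51% of all genes tested. These 7 were Gm34759, Gm49542, 4932422M17Rik, Gm47163, A530020G20Rik, Gm37459 and Gm6566.

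Among variable RNAs, Neat1 was at -0.72 ± 0.27 (adjusted p = 0.521, edgeR), Malat1 at -0.69 ± 0.33 (0.614), Meg3 at -0.76 ± 0.38 (0.645) and Mirg at -0.81 ± 0.34 (0.581) on the log2 scale. Gm49542, at 89.4, 60.9 and 58.5 CPM in PD-L1low and 49.6, 39.4, 27.9 and 28.8 CPM in PD-L1high, was at -1.16 ± 0.29 (0.227), Pcsk2os1 at -0.77 ± 0.22 (0.227), 6720427I07Rik at -1.21 ± 0.29 (0.099) and AI480526 at -1.09 ± 0.31 (0.207). AW112010 and AC119228.1 had positive values, 2.08 ± 0.46 (0.0556) and 1.92 ± 0.46 (0.105), and neither passed the threshold. DESeq2 called both, with Gm34759, Gm49542 and 6720427I07Rik, and limma-voom called the same genes except Gm49542.

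**Figure D4:**
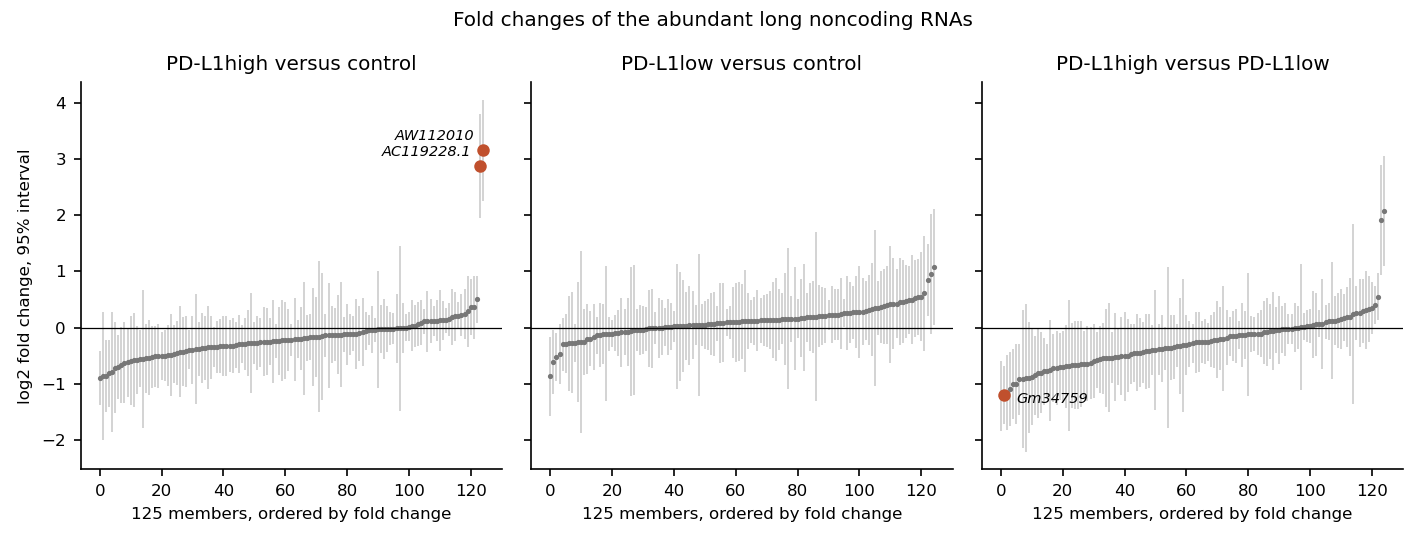
Fitted log2 fold changes of the 125 members in the 3 comparisons, each ordered by size, with 95% intervals as grey lines and members with an adjusted p under 0.05 (edgeR) as large points. AW112010 and AC119228.1 stand apart in PD-L1high against control, no member is marked in PD-L1low against control, and Gm34759 is marked below 0 in PD-L1high against PD-L1low.

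By role, the calls were few. Of lists drawn up by function, the 3 imprinted RNAs of Dlk1-Dio3, 4 tested imprinted RNAs elsewhere, the 2 RNAs of nuclear bodies (Malat1 and Neat1), 6 tested widely expressed RNAs and 5 tested RNAs studied in islets had no call in any comparison, and the same held for 12 tested host genes of small nucleolar RNAs, of which only Snhg12 was a member (between 6.13 and 16.3 CPM). GENCODE classes most such hosts, Gas5 among them, as processed transcripts. Of 4 RNAs known in immune cells, AW112010 alone passed the count filter. Unadjusted in PD-L1high against PD-L1low, 2 of the Dlk1-Dio3 RNAs (Mirg and Rian), Neat1, 2 of the small nucleolar RNA hosts (Snhg11 and Snhg15), 2 of the widely expressed RNAs (Firre and Dleu2) and Paupar had a p under 0.05 by edgeR, all with a negative log2 fold change.

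The lists of coding genes linked to these RNAs had no call. None of 10 genes of paraspeckle proteins was called in any comparison, with median log2 fold changes of -0.03, 0.05 and -0.06 in the order of comparisons above, and none of 10 genes of nuclear RNA decay, with -0.03, 0.09 and -0.09. Unadjusted by edgeR, 1 paraspeckle gene had a p under 0.05 in PD-L1low against control (Rbm14). Of the decay genes, Exosc3, an exosome subunit, had one in PD-L1high against control, and Exosc3, Pabpn1 and Zfc3h1 in PD-L1high against PD-L1low. Of the imprinted coding genes at Dlk1-Dio3, 2 of 3 were tested and 0 called. Dlk1 was at 8.94, 9.48 and 8.26 CPM in control, PD-L1low and PD-L1high, and Rtl1, which is read opposite the Meg3 to Mirg interval, followed Meg3 in control at 58.7, 11.3, 47.1 and 21.9 CPM. Of 73 coding genes tested that overlap a member on the opposite strand or share its start region, only Cd274 was called, in all 3 comparisons. Among coding genes overlapping a member on the same strand, Olfm4, which overlaps Gm6999, was called in PD-L1high against PD-L1low (log2 fold change -0.69, adjusted p = 0.0414, edgeR).

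Chromosome 12 held 14 of the members, chromosome 7 held 12 and chromosome 3 held 11. Gm38102 and 4932422M17Rik lie within the span of AI480526, on the opposite strand, near Setd1b on chromosome 5, so that their counts may share reads, and all 3 had control replicate 1 highest and control replicate 2 lowest (18.1 and 4.69 CPM for AI480526, 32.6 and 4.29 CPM for Gm38102, and 54.3 and 12.4 CPM for 4932422M17Rik). Of the members not named so far that the naming rule took for their level, D930016D06Rik was at 55.2 to 146 CPM, Gm37494 at 62.0 to 132 and Gm20300 at 65.8 to 99.6 in control.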

How the data were processed

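RNA of the sorted beta cells was made into strand-specific, random-primed total RNA libraries with the Ovation Solo kit, which removes ribosomal RNA by AnyDeplete, per the labels and the study's methods. The authors aligned the reads with STAR 2.5.2b to GRCm38.p6 and ran RSEM (version not given in the sources used here) to make the deposited expected counts per gene, which need not be whole. The deposited TPM values are RSEM's abundances, scaled by effective transcript length. The strand setting of RSEM is not given in the sources used here.

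Gene classes and positions came from GENCODE M21, which held 55227 of the 55487 gene identifiers. CPM was the expected count over the library total. For tests, expected counts were rounded, which changed no library total by more than 0.000388%, filtered with filterByExpr at a count minimum of 10 (16252 genes left) and scaled by TMM. All 11 libraries entered 1 edgeR (4.0.16, R 4.3.3) quasi-likelihood fit with group and replicate number as terms, since the study's methods put a batch term in the DESeq2 (1.32.0 per the submitters' processing notes) design without saying which samples shared a batch. Adjusted p-values are Benjamini-Hochberg over all genes tested, with a threshold of 0.05, and errors of fold changes are standard errors. They measure only the spread between these samples. Alternatives were RLE size factors, no filter, a count minimum of 50, no replicate term, DESeq2 (1.42.0), limma-voom (limma 3.58.1), only the groups compared, each library left out and other membership limits. Scripts were tested on simulated counts. Sequence shared between genes was searched with blastn 2.17.0 (stretches of at least 75 bases at 97% identity). Python 3.11.15 was used for the rest.

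The members and gene lists were chosen with earlier results of these data known. Named are the 15 members with the highest mean TPM, the 5 next highest and the 5 lowest in mean CPM, called members or, where there were fewer, the 4 with the smallest p in a comparison, members on the lists of noncoding RNAs, the 3 genes on each side of the limit, the 3 most and 3 least variable in control, and the coding genes they overlap. Other genes, such as B830012L14Rik, Gm49542, Pcsk2os1, Pcsk2os2, AC165951.1, Gm45486 and M5C1000I18Rik, were chosen after their values were seen. One unadjusted result for a coding gene is not reported here.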

Additional observations from a re-analysis of the deposited data

Results flagged for a closer look

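Of 78 groups of 4 libraries examined for the named members, 7 had 1 library far from the other 3, where chance gives about 1 in 20 groups. Control replicate 1 stood apart for Rmrp (1416 CPM) and Gm10848 (35.98 CPM). PD-L1high replicate 1 stood apart for Meg3 (1017 CPM), Neat1 (1344 CPM) and 6720427I07Rik (19.1 CPM). PD-L1high replicate 2 stood apart for Peg13 (139 CPM) and 1110002L01Rik (10.3 CPM).

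Gm34759 differed between the PD-L1high and PD-L1low groups, with a log2 fold change of -1.20 in the edgeR test of that difference (adjusted p = 0.0357). Without the replicate number as a term, the adjusted p of that test was 0.54.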

How the results depend on the processing

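Of the reported fold changes under all alternatives, 443 kept their direction and side of the threshold, 36 came to pass it, 9 no longer passed it and 6 changed sign. Without a filter, 9 members were called in PD-L1high against control (1.19% of all genes tested) and 22 in PD-L1high against PD-L1low (1.28%). With a count minimum of 50 the latter was 0 (1.01% of all genes), with DESeq2 5 (1.25%), with limma-voom 4 (1.11%) and with only the groups compared 4 (0.963%). Leaving out 1 library at a time gave 2 to 9 calls, 0 to 0 calls and 0 to 3 calls in PD-L1high against control, PD-L1low against control and PD-L1high against PD-L1low, and a log2 fold change of Malat1 in the first of -0.48 to 0.062. With replicates 2 to 4 alone, an alternative chosen after seeing the data, 2 members were called in PD-L1high against PD-L1low (0.892% of all genes) and Malat1 was at 0.062 against control. A limit of 5 CPM gave 254 members, 20 CPM gave 53, and wider gene classes 293.

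Without the replicate block, 1 member was called in PD-L1high against control (AW112010, 0.781% of all genes) and 0 in PD-L1high against PD-L1low (0.541%), and in PD-L1low against control Malat1 turned to -0.073 and Neat1 to -0.25. Same-numbered libraries had correlations of their deviations from -0.33 to 0.41 over all genes tested, so the numbers were not shown to pair the samples. The cause of these changes was not tested. With 3 or 4 libraries a group and a control range over 2-fold in 83 members, differences within that range could not be told from replicate spread.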
